A study of Microtus ochrogaster with 40 samples.

Results

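The corticotropin-releasing factor system was followed here through its 4 genes listed in the deposited matrices, of 19130 genes in all. These are Crh (ENSMOCG00000018638), which encodes the peptide, Crhr1 (ENSMOCG00000011532) and Crhr2 (ENSMOCG00000019712), which encode its receptors, and Crhbp (ENSMOCG00000021245), which encodes its binding protein. They were picked by name as the ligand, receptors and binding protein of 1 system, with earlier results of these data known. All 4 were found and had UMIs in each of the 40 libraries. A UMI is a molecular tag that marks a single captured RNA molecule.

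Corticotropin-releasing factor is best known as the hypothalamic peptide that drives the release of adrenocorticotropin from the pituitary, and it also acts as a transmitter within the brain. Its receptors couple mainly to stimulatory G proteins and raise cyclic AMP. The peptide prefers receptor 1, the urocortins Ucn2 and Ucn3 prefer receptor 2, and the secreted binding protein holds the peptide away from the receptors. In the nucleus accumbens, a part of the ventral striatum, the peptide modulates the release of dopamine and acetylcholine, and in prairie voles its receptors there have been linked to partner preference and to the response to the loss of a partner.

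Single-nucleus RNA was measured in nucleus accumbens tissue from 40 prairie voles, Microtus ochrogaster, a rodent that forms lasting pair bonds. All animals had been housed with a new partner for 16 days, either of the opposite sex (mate) or of the same sex (peer), and each library holds the nuclei of 1 animal. Among females 11 lived with a mate and 8 with a peer, and among males 11 lived with a mate and 10 with a peer. No library came from an unpaired animal. No age, strain or genotype is given in the labels used here, and the labels do not say which animals lived together, so animals of 1 home may not be independent.

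After filtering, 178387 nuclei were kept, 1767 to 7666 per library, and the shallowest library, male mate 2, had a median of 654 UMIs per nucleus. Kept nuclei of a library summed to 2916081 to 13178120 UMIs. Each library held the striatal markers Ppp1r1b, Drd1 and Drd2. The cortical marker Slc17a7 ranged from 12.4 to 1035 CPM (a gene's UMIs scaled to a library total of 1000000) over the libraries, and nuclei named glutamate neuron-like made up 0.508% (male peer 5) to 37.2% (male mate 2) of a library, and 5.21% to 22.1% of the other libraries. Nuclei were grouped into 37 clusters, without use of the 4 genes. A cluster was called X-like where it held the marker genes of cell type X, which gave 17 classes. One of these, cluster 15, held 4 of 5 markers of parvalbumin interneurons, but its leading genes were Crabp1, Trh and Kit, and Pvalb was lower in it (77.6 CPM) than in the unnamed cluster 13 (189 CPM), so it is called by its number. The other clusters, with 16.8% of nuclei, carry a number only and are described by their leading genes. Levels are given as the mean ± SD over animals with at least 20 nuclei of the class, in CPM of that class. A difference between sets is called within the spread where its mean over animals is below the SD of the differences. This describes single animals and does not test the mean difference.

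The peptide, the receptors and the binding protein had their highest levels in different classes, except that Crh shared its highest class with Crhr2. Crh and Crhr2 were both highest in a rare Vip-rich class of GABA neurons, Crhr1 in cholinergic neurons and oligodendrocyte precursors, and Crhbp in somatostatin interneurons. In none of the comparisons that could be tested, 4 over all nuclei, 10 within a class by edgeR and 8 by permutation, did a gene pass the test for a difference between mate and peer animals. All 4 were detected in few nuclei: Crh in 874 (0.490%), Crhr1 in 2842 (1.59%), Crhr2 in 9111 (5.11%) and Crhbp in 3234 (1.81%).

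Crh stood highest in the other GABA neuron-like class, 634 nuclei of cluster 25 that carried Vip, Cck and Htr3a. Its level there was 363 ± 331 CPM (SD, n = 12 animals). Over the 12 animals the lowest value was 66.4, the median 261 and the highest 1277 CPM. The highest came from female mate 7, without which the mean was 280 CPM, and no animal was at 0. This class made up 0.355% of all nuclei and held 24.1% of all Crh UMIs. At least 1 Crh UMI was seen in 19.1% of its nuclei (95% exact binomial interval 16.1 to 22.4, counting error only), at a median of 2026 UMIs. In D1 medium spiny neuron-like nuclei, often called direct-pathway projection neurons, the share was 0.112% at a median of 2146 UMIs, with at most 4 Crh UMIs in 1 nucleus. Free RNA was not measured, so its part in this share is not known. Up to 38 Crh UMIs were counted in 1 such GABA nucleus.

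Another site of Crh was cluster 13, an unnamed cluster led by Kcnc2, Sst, Grik1 and Pvalb. Its 3965 nuclei held 22.9% of Crh UMIs at 38.0 ± 37.0 CPM (SD, n = 39), from 0 in 4 animals to 166 CPM in female mate 11. In each of the 12 animals that held enough nuclei of both, Crh was higher in the Vip-rich class than in cluster 13, by 325 ± 331 CPM (mean ± SD of the differences). The size of this difference thus lay within the spread, although its direction was the same in all 12 animals. Cholinergic interneuron-like nuclei followed at 31.4 ± 30.6 CPM (n = 23), somatostatin interneuron-like nuclei at 31.0 ± 38.4 CPM (n = 31) and cluster 16, led by Gpr101 and Gpr165, at 27.9 ± 43.4 CPM (n = 37). These 4 levels did not differ from neighbour to neighbour beyond their spread: cluster 13 exceeded the cholinergic class in 15 of 22 animals, by 12.9 ± 53.7 CPM. Of the 3965 nuclei of cluster 13, 2429 had an Sst UMI and 781 a Pvalb UMI. Finer clustering, at resolution 2, gave a parvalbumin interneuron-like cluster led by Pvalb and an unnamed one led by Sst and Elfn1. All levels given for cluster 13 may thus average over more than 1 kind of nuclei.

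Below these sites Crh was sparse. Cluster 15 had 7.09 ± 18.6 CPM (n = 39) and 26 of these animals were at 0. Cluster 16 exceeded it in 26 of 36 animals, by 23.1 ± 47.9 CPM, which is also within the spread. Glutamate neuron-like nuclei had 4.40 ± 5.67 CPM (n = 40), but since they are numerous they held 16.6% of Crh UMIs. D1 medium spiny neuron-like nuclei had 0.83 ± 2.02 CPM, with 22 of 40 animals at 0. No Crh UMI was found in 4574 microglia-like nuclei, which by a limit of 3 counts allows a share of up to 0.0656% of such nuclei with a UMI (exact 95% upper bound 0.0806%) at their median depth of 606 UMIs.

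Crhr1, the receptor that binds Crh with high affinity, was highest in cholinergic interneuron-like nuclei (cluster 23), at 88.4 ± 59.1 CPM (SD, n = 23). These are the acetylcholine-releasing interneurons of the striatum and carried Chat and Slc5a7. Single animals ran from 0 in male peer 7 to 277 CPM, with a median of 82.4 CPM. A Crhr1 UMI was seen in 18.4% of cholinergic nuclei (15.9 to 21.1), against 0.217% of D1 medium spiny neuron-like nuclei, at median depths of 2483 and 2146 UMIs. The class also held Crh, and 13 of its 63 nuclei with a Crh UMI had a Crhr1 UMI (20.6%), close to the 18.2% of nuclei without Crh.

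The second level of Crhr1 lay outside neurons. Oligodendrocyte precursor-like nuclei, the dividing glia that give rise to myelinating cells and carry Pdgfra and Cspg4, had 60.0 ± 31.1 CPM (n = 39), with a median of 57.5 CPM and 1 animal at 0. Their detected share of 5.18% came at a median of 813 UMIs. After each nucleus was thinned to 1000 UMIs the share was 6.68% in precursors and 8.21% in cholinergic nuclei, from 1213 and 658 nuclei with that depth. The cholinergic class exceeded the precursors by 25.1 ± 63.5 CPM, in 12 of 22 animals, which is within the spread. Oligodendrocyte-like nuclei had 1.34 CPM of Crhr1, astrocyte-like nuclei 1.41, D1 medium spiny neuron-like nuclei 0.933 and D2 nuclei 1.10 CPM.

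The glutamate neuron-like class held 45.7% of Crhr1 UMIs, more than any other class, at 23.1 ± 8.49 CPM (n = 40). Within that class the receptor was uneven. Cluster 4 had 34.2 CPM and cluster 9, rich in Rxfp2 and Hs3st4, had 2.17 CPM, and the first was higher in 39 of 39 animals (difference 32.1 ± 9.15 CPM). A pair of unnamed clusters lay near or above the class: cluster 22, led by Ndnf and Npr3, at 33.3 ± 21.9 CPM (n = 23), and cluster 7, led by Cck and Stmn1 and carrying all 6 glutamate markers used, at 26.1 ± 12.0 CPM (n = 39). Cluster 22 passed only 2 of the 6 glutamate markers. It carried Slc17a7 at 1495 CPM, against 15.6 CPM of Gad1 and 22.7 CPM of Gad2, the GABA synthesis genes. Whether the glutamate neurons lie inside the nucleus accumbens or beside it cannot be told from these data. The same limit holds for the other classes and clusters, since the place of a nucleus in the tissue was not measured. Among them are the Vip-rich class, the somatostatin class and the unnamed cluster led by Kcnc2, Sst, Grik1 and Pvalb.

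Crhr2, the receptor preferred by Ucn2 and Ucn3, was detected in more nuclei than the other 3 genes. Its highest level was again in the Vip-rich other GABA neuron-like class, at 369 ± 205 CPM (SD, n = 12), from 111 to 759 CPM with a median of 313 CPM. The eccentric medium spiny neuron-like class, a population that carries Otof, Foxp2 and Tshz1, came next at 169 ± 58.8 CPM (n = 40), from 50.0 to 275 CPM. It held 38.2% of all Crhr2 UMIs. The Vip-rich class was higher than the eccentric class in 10 of 12 animals, by 199 ± 191 CPM.

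Among the named spiny neuron classes, Crhr2 followed the order eccentric, D2, D1. D2 medium spiny neuron-like nuclei, often called indirect-pathway neurons, had 57.5 ± 21.2 CPM (n = 40) and 32.4% of the UMIs, and D1 nuclei had 14.0 ± 8.48 CPM (n = 40). The main D2 cluster, cluster 2, exceeded the D1 cluster in 40 of 40 animals, by 32.4 ± 13.4 CPM. The D2 class was itself divided: the smaller cluster 10, marked by Cpne7, had 112 CPM against 46.3 CPM in cluster 2 and was higher in 37 of 40 animals (difference 65.2 ± 55.9 CPM). Its level lay below that of the eccentric class in 34 of 40 animals. Other sites were cluster 19, led by Krt15 and Drd3, at 91.5 ± 81.9 CPM (n = 24), cluster 22 at 68.9 ± 32.6 CPM (n = 23) and cluster 13 at 63.6 ± 26.9 CPM (n = 39), which did not differ from neighbour to neighbour beyond their spread. Clusters 8 and 19 were unnamed but carried Drd1, at 646 and 600 CPM, against 957 CPM in the D1 cluster. The eccentric class also carried Drd1, at 816 CPM, so Drd1-carrying nuclei stood at both ends of the order. Cluster 8, led by Drd3 and Rtp2, had 39.5 CPM of Crhr2 and was higher than cluster 2 in 15 of 40 animals. The order above leaves out clusters 8 and 19.

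Cholinergic and Vip-rich nuclei differed in which receptor they held. Cholinergic nuclei had a Crhr2 UMI in 1 of 907 nuclei (0.110%) and a Crhr1 UMI in 167. In the Vip-rich class the counts were the other way round, a Crhr1 UMI in 1 of 634 nuclei (0.158%) and a Crhr2 UMI in 237 (37.4%). At these depths the lone UMIs cannot be told from free RNA. Other sets held both receptors. A Crhr1 and a Crhr2 UMI were seen in 1.77% and 4.55% of somatostatin nuclei and in 4.91% and 3.52% of cluster 16. The shares were 1.42% and 23.4% in the eccentric class and 10.7% and 18.9% in cluster 22, the deepest set (median 3583 UMIs). Thinned to 1000 UMIs per nucleus, they were 0.726% and 2.63% (somatostatin), 2.10% and 2.00% (cluster 16), 0.765% and 15.6% (eccentric) and 3.42% and 6.52% (cluster 22). Of 109 nuclei with UMIs of both receptors, 56 lay in the eccentric class. Over the 32 clusters of at least 200 nuclei the levels of the receptors had a Pearson r of -0.06 on log2(CPM + 1), a description across clusters that share their libraries.

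Crhbp, the secreted protein that binds the peptide, was high in 3 sets of interneurons among those with at least 6 animals. Somatostatin interneuron-like nuclei (cluster 18, with Npy and Nos1) had 922 ± 411 CPM (SD, n = 31), from 356 to 1884 CPM with a median of 811 CPM, and 49.2% of them had a Crhbp UMI (46.4 to 51.9). Cluster 13 had 296 ± 98.1 CPM (n = 39), and cluster 15 had 232 ± 86.5 CPM (n = 39). The somatostatin class, cluster 13 and cluster 15 held 31.3%, 38.3% and 17.7% of all Crhbp UMIs while making up 0.728%, 2.22% and 1.48% of nuclei. No animal was at 0 in any of them. The somatostatin class exceeded cluster 13 in 30 of 30 animals, by 643 ± 404 CPM. Cluster 13 exceeded cluster 15 in 25 of 38 animals, by 64.3 ± 125 CPM, within the spread.

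Among the sets with at least 6 animals, Crhbp fell steeply outside these interneurons. Cluster 15 exceeded the next set with at least 6 animals, cluster 16 at 16.5 ± 24.3 CPM, in 36 of 36 animals. Cluster 27, led by Kit and Cxcl14, had 141 ± 82.8 CPM but was filled in 4 animals only. It too carried the GABA neuron genes Gad1 and Gad2, at 4343 and 5017 CPM, and 14.7% of its nuclei had a Crhbp UMI. D1 medium spiny neuron-like nuclei had 1.32 ± 1.27 CPM and a Crhbp UMI in 0.266% of nuclei, near the 0.328% of microglia-like nuclei, at median depths of 2146 and 606 UMIs.

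**Figure D1:**
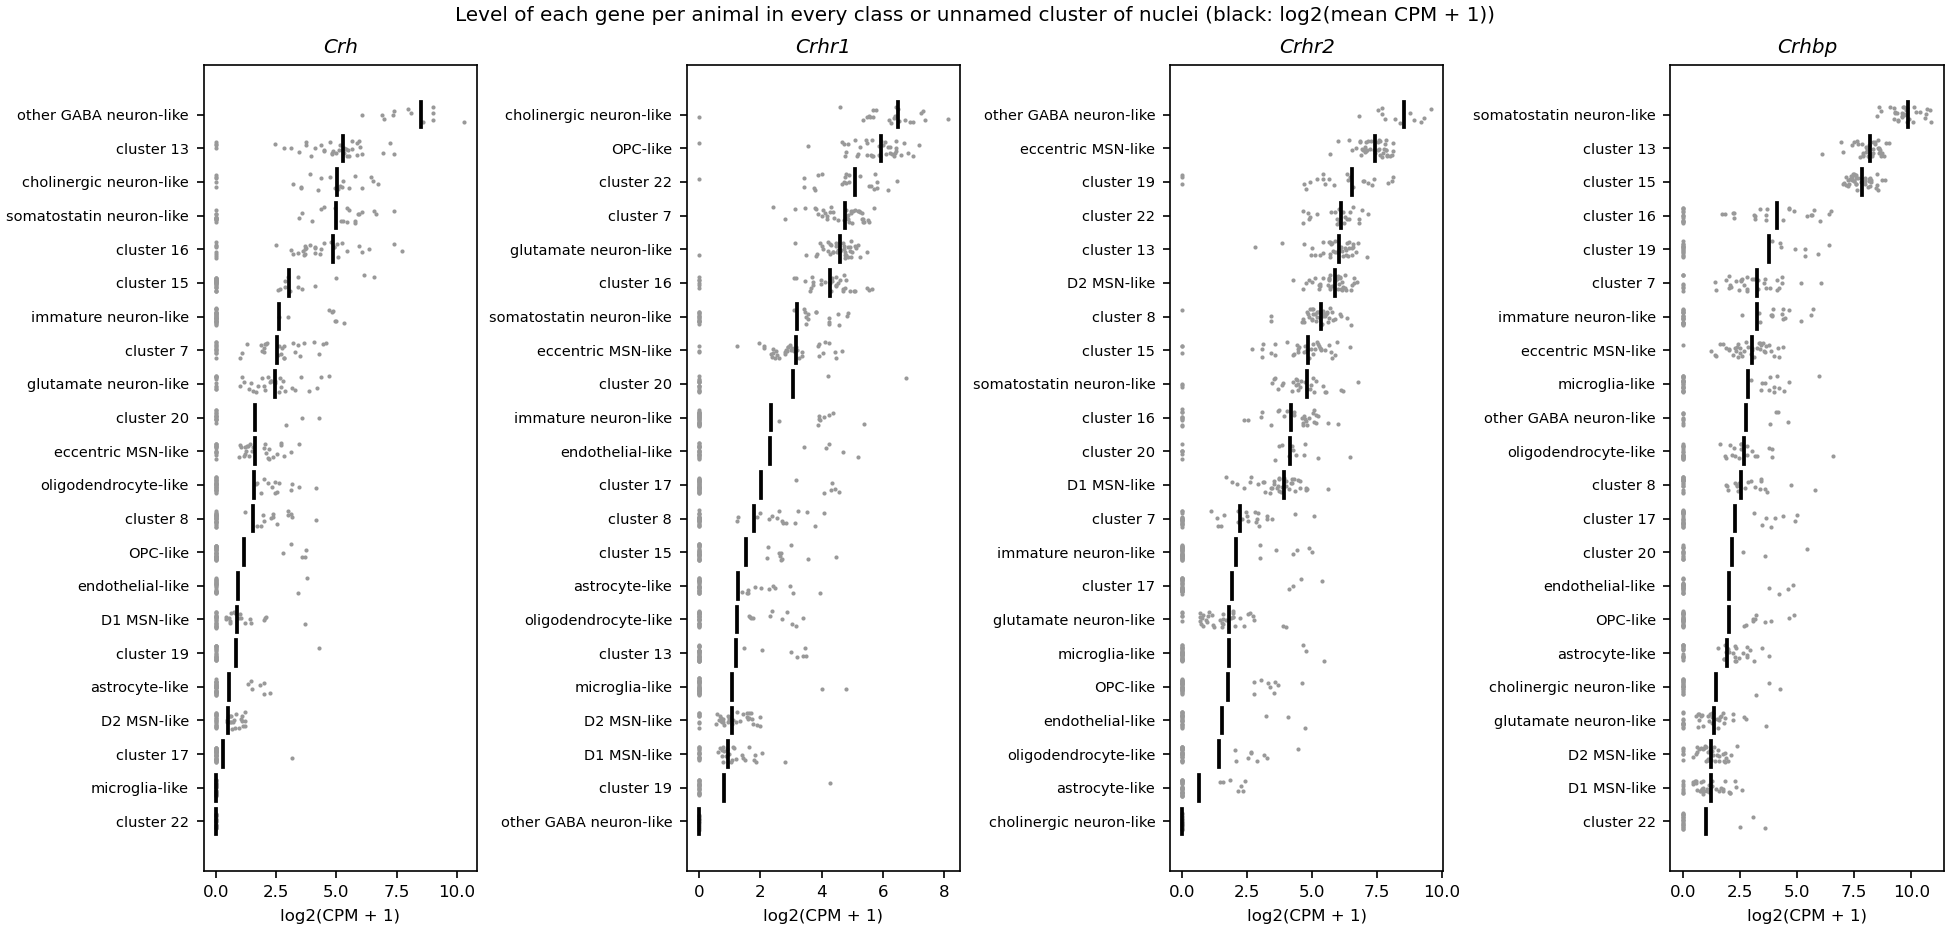
Level of Crh, Crhr1, Crhr2 and Crhbp in each class or unnamed cluster with at least 6 animals, on a log2(CPM + 1) axis, with 1 grey point per animal, the log2 of the mean CPM plus 1 in black and rows ordered by the mean (MSN, medium spiny neuron; OPC, oligodendrocyte precursor; "neuron" stands for interneuron in the somatostatin and cholinergic rows). Crh drops from 363 CPM in the first row to 38.0 CPM in the second, Crhbp stays high over 3 rows and then drops to 16.5 CPM, and Crhr2 declines gradually over many classes.

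The related ligands were near the limit of detection. Ucn, which binds both receptors, had 24 UMIs over all nuclei, at 0.0752 ± 0.0963 CPM (n = 40), and 22 animals were at 0. Ucn3, a ligand of receptor 2, had 2 UMIs in all. Ucn2 was not listed under that name in the matrices, so it was not analysed.

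Within single nuclei of the Vip-rich class, Crh and Crhr2 were often seen together. Of 121 nuclei with a Crh UMI in cluster 25, 69 also had a Crhr2 UMI (57.0%, 95% exact binomial interval 47.7 to 66.0), against 32.7% of its nuclei without Crh. The nuclei with Crh were deeper, with medians of 2478 and 1911 UMIs, and the part of depth in this gap was not tested. Both genes also went with Vip in this class: Vip was seen in 88.4% of nuclei with Crh and 72.1% of those without, and in 91.6% of nuclei with Crhr2 and 65.5% of those without. Over all nuclei 116 held both Crh and Crhr2, and 59.5% of these lay in cluster 25.

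In cluster 13, nuclei with Crh had Crhbp less often than nuclei without it, in 18 of 21 animals. Crhbp was seen in 12 of 129 nuclei with Crh (9.30%, 4.90 to 15.7) and in 27.4% of those without, at medians of 2409 and 2112 UMIs. The 21 animals are those with at least 3 Crh nuclei in this cluster, and the mean difference of their shares was -15.8 ± 19.0 percentage points (SD). The nuclei with Crh were of the Sst kind: 91.5% of them had an Sst UMI, against 60.2% of nuclei without Crh, and 3.1% had Pvalb, against 20.3%. Among nuclei with Sst, pooled over animals, Crhbp was seen in 12 of 118 with Crh (10.2%) and in 35.5% of those without. The part of depth and of the kinds of nuclei in this gap was not tested. The same direction was seen in the somatostatin class, with Crhbp in 32.8% of 58 nuclei with Crh and in 49.9% of the others, at median depths of 1942 and 1941 UMIs. Nuclei of 1 animal share their library, so no p is given for these shares.

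**Figure D2:**
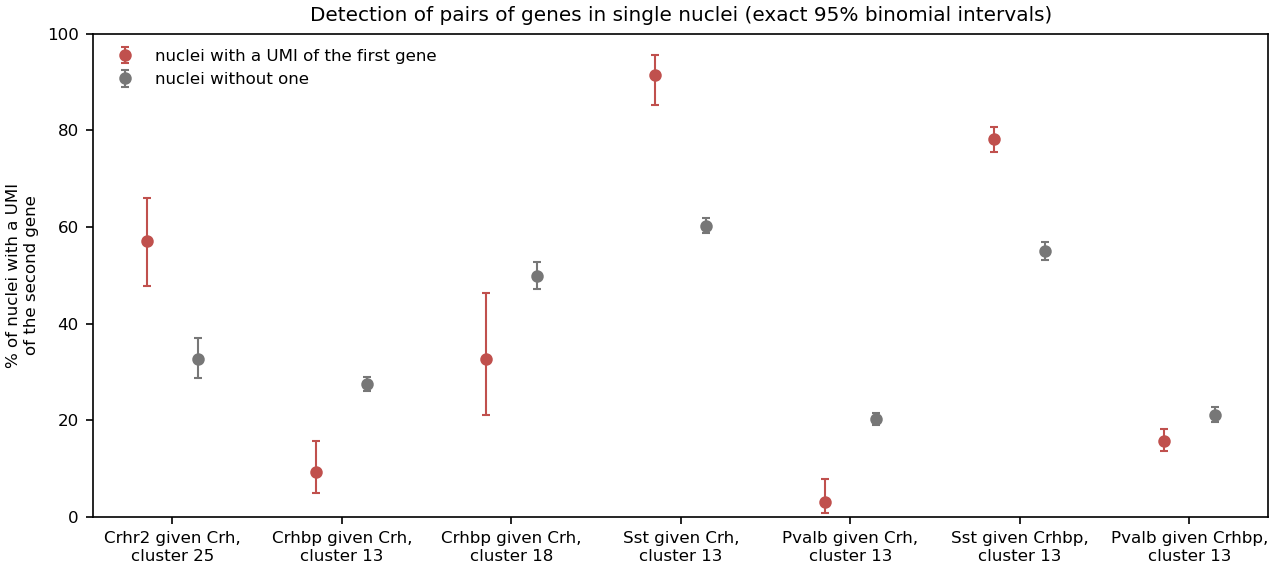
Share of nuclei with a UMI of a second gene among nuclei with (red) and without (grey) a UMI of a first gene, in percent, with exact 95% binomial intervals that cover counting error only. Crhr2 is seen more often beside Crh in cluster 25 (57.0% against 32.7%), and Crhbp less often beside Crh in cluster 13 (9.30% against 27.4%).

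The genes whose levels ran most like those of each member were taken over the 32 clusters, out of 14397 genes, by Pearson correlation of log2(CPM + 1). For Crh these were Pcbd1 (r = 0.79), Irs4 (r = 0.76) and Emilin3 (r = 0.76). Their levels in cluster 25 were low, at 20.6, 9.28 and 8.62 CPM. Emilin3 alone was highest there, while Pcbd1 was highest in cluster 23 and Irs4 in cluster 18. For Crhr1 they were Plpp4 (r = 0.65), 4933405O20Rik (r = 0.63) and Car10 (r = 0.63), the loosest likeness of the 4. For Crhr2 they were Ankrd34b (r = 0.82), Htr4, a serotonin receptor (r = 0.81), and Gabra2, a GABA-A receptor subunit (r = 0.80). Crhbp ran most like Lhx6 (r = 0.86), a transcription factor of interneurons from the medial ganglionic eminence, Moxd1 (r = 0.86) and Npy (r = 0.83), the peptide of the somatostatin class. Clusters share libraries and depth, so these values are descriptions.

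The pairing comparison asks whether living with a mate or with a peer goes with a different level of the system. Over all nuclei, Crh had a median of 4.91 CPM in 22 mate animals (lowest 0.623, highest 16.8) and of 3.93 CPM in 18 peer animals (lowest 1.37, highest 13.7). By group, the median was 4.93 CPM in female mates, 5.40 in female peers, 4.90 in male mates and 3.47 in male peers. The range of the peers lay within that of the mates, and the highest values belonged to female mate 7 and female peer 3. The log2 fold change, mate minus peer averaged over the sexes, was 0.03 ± 0.28 (SE), with an adjusted p of 0.986 (edgeR's quasi-likelihood test, Benjamini-Hochberg over 13710 genes) and a 95% interval from -0.52 to 0.58. In a level summed over all nuclei, fewer expressing nuclei and less RNA per nucleus cannot be told apart. The set with the largest share of a gene's UMIs filled a varying part of a library: the Vip-rich class (Crh) 0% to 0.899% of nuclei, glutamate neuron-like nuclei (Crhr1) 0.508% to 37.2% with a median of 11.7%, the eccentric class (Crhr2) 2.58% to 13.4% and cluster 13 (Crhbp) 0.392% to 4.08%. In mates and peers the median shares were 0.288% and 0.446% for the Vip-rich class, 12.2% and 11.4% for glutamate neuron-like nuclei, 7.71% and 6.83% for the eccentric class, 18.1% and 15.3% for D2 nuclei and 2.24% and 2.52% for cluster 13. The medians of the eccentric and D2 classes were thus higher in mates, as was that of Crhr2, and the median of cluster 13 was lower, as was that of Crhbp. The other main sets of Crhbp did not share that direction, with medians of 0.688% in mates and 0.684% in peers for the somatostatin class and of 1.41% and 1.36% for cluster 15. The Vip-rich class had the lower median in mates, while Crh had the higher one. For Crhr1 the sets went both ways. Glutamate neuron-like nuclei had the higher median share in mates, as did precursors (2.92% against 2.75%), and cholinergic nuclei the lower one (0.478% against 0.536%). Crhr1 itself had the higher median in mates but a negative fold change. The part of these shares in the levels over all nuclei was not tested.

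Crhr1 had a median of 9.35 CPM in mates (4.15 to 17.3) and of 9.16 CPM in peers (3.96 to 16.6). The group medians were 8.34 CPM in female mates, 11.1 in female peers, 9.63 in male mates and 9.06 in male peers, with full overlap. Its log2 fold change was -0.09 ± 0.16, and the interval ran from -0.40 to 0.22 (adjusted p = 0.894).

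Crhr2 had a median of 37.4 CPM in mates (19.0 to 65.2) and of 33.6 CPM in peers (11.0 to 57.6). Female mates stood at 37.8 CPM, female peers at 35.3, male mates at 37.1 and male peers at 31.2. Mate medians were thus above peer medians in both sexes, but the ranges overlapped, and the log2 fold change of 0.16 ± 0.14 had an interval from -0.11 to 0.43 (adjusted p = 0.773).

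Crhbp had a median of 22.4 CPM in mates (10.8 to 40.2) and of 25.7 CPM in peers (13.9 to 35.4). The group medians were 22.3 CPM in female mates, 25.1 in female peers, 22.6 in male mates and 26.9 in male peers. The log2 fold change was -0.07 ± 0.13 with an interval from -0.33 to 0.18 (adjusted p = 0.897). The pairing differences shifted when the library numbers in the labels, whose meaning is not given, were taken into account. Whether these shifts exceed the error of the estimates was not tested, and the only fold change to turn its sign was that of Crhbp. Libraries numbered 1 to 10, of which 8 were mates, had 19.5 ± 4.76 CPM, and libraries 31 to 40, of which 4 were mates, had 29.7 ± 7.03 CPM. With a term for each 10 numbers its log2 fold change was 0.06 (adjusted p = 0.954), that of Crh 0.17 (adjusted p = 0.934), that of Crhr1 -0.01 (adjusted p = 0.995) and that of Crhr2 0.08 (adjusted p = 0.941). Within the 4 blocks in order, mate minus peer for Crhbp was -4.69, -0.19, 1.73 and 4.52 CPM, the first with 2 peers only. For Crhr2 it was -4.94, 4.95, -2.94 and 6.30 CPM, for Crh 2.48, -1.19, 0.12 and 1.53 CPM, and for Crhr1 1.23, -2.65, 2.99 and -1.65 CPM, so that none of the 4 genes kept 1 direction in all blocks.

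**Figure D3:**
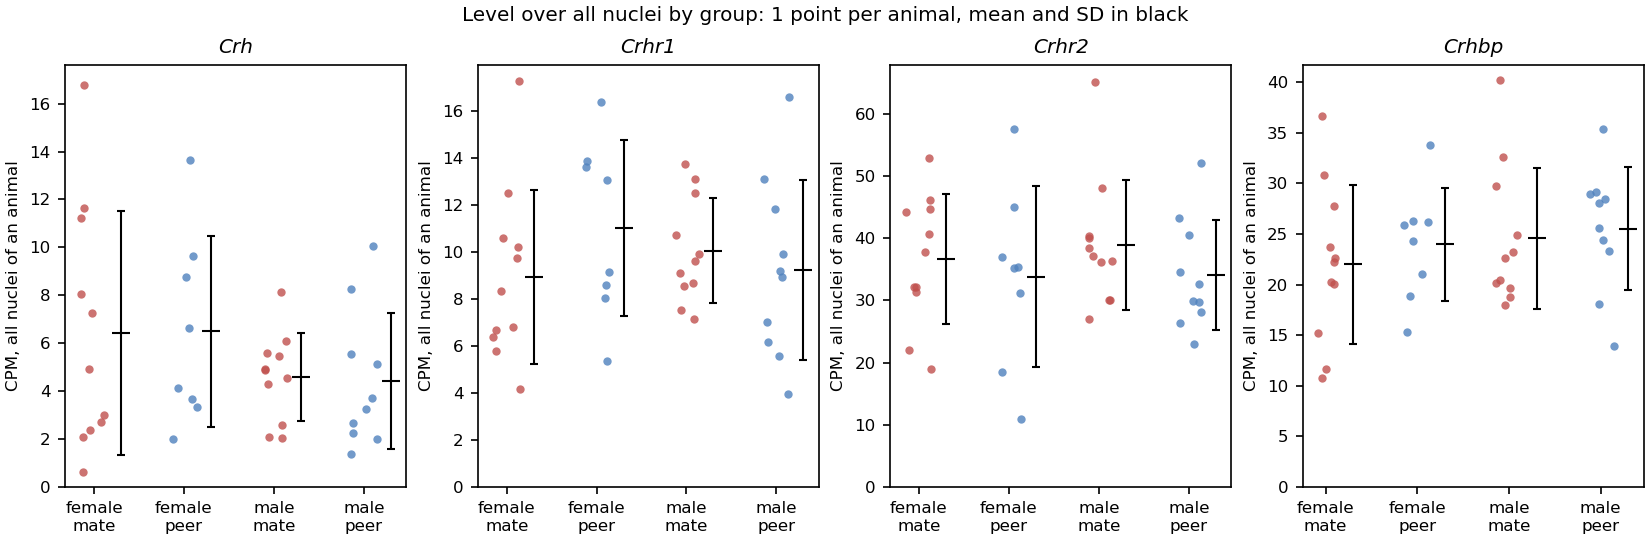
Level of each gene over all nuclei of an animal, in CPM, for the 4 groups, with 1 point per animal (mate red, peer blue) and the mean and SD in black. The groups overlap for each gene, with Crhr2 medians of 37.4 CPM in mates and 33.6 CPM in peers.

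So 0 of the 4 members were called for pairing over all nuclei, by edgeR or by DESeq2, with 0 at an unadjusted p under 0.05. The background was the same, with 0% of 13710 genes called by either tool and 949 genes at an unadjusted p under 0.05 by edgeR. For sex, 0 of the 4 were called, beside a background of 0.0219% of genes (3 of 13710) by edgeR and 6 genes by DESeq2. Crh came nearest: females minus males gave a log2 fold change of 0.51 ± 0.28 (adjusted p = 0.624), with female peers at 6.49 ± 3.97 CPM and female mates at 6.42 ± 5.08 CPM, and male peers at 4.41 ± 2.85 CPM and male mates at 4.60 ± 1.84 CPM. The interaction, female minus male in the mate-peer difference, was called for 0 of the 4 and for 0% of genes, by edgeR and by DESeq2, with 275 and 284 genes at an unadjusted p under 0.05. The edgeR adjusted p of each member was 1.00 after rounding.

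Within classes, 15 classes or clusters had at least 6 animals per group, which gives 60 combinations with the 4 genes, and 10 of these passed the filter on low counts. Of the 10, 0 were called and 0 had an unadjusted p under 0.05 by edgeR. Across all genes 0% of 96275 combinations of gene and class were called, by edgeR or DESeq2, and 4924 had an unadjusted p under 0.05 by edgeR. The other 50 combinations were too sparse for this test, and the Vip-rich, cholinergic and somatostatin classes had too few animals per group.

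Crh was tested within cluster 13 alone, where its fold was the largest of the 10. Its level there ran from 0 to 166 CPM in mates (median 29.2) and from 0 to 150 CPM in peers (median 39.3). Male mates stood at 18.1 ± 12.4 CPM (n = 11), none above 34.1, while female mates were at 48.1 ± 42.2 CPM (n = 11), female peers at 45.0 ± 47.7 CPM (n = 8) and male peers at 43.7 ± 36.4 CPM (n = 9). The log2 fold change was -0.56 ± 0.30 with an interval from -1.15 to 0.03 (edgeR adjusted p = 0.809). Whether the sexes differ in this was not tested.

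Crhr2 was tested in 5 sets. The log2 fold change was 0.16 ± 0.16 in D2 medium spiny neuron-like nuclei, where mates had a median of 60.3 CPM (31.0 to 105) and peers of 49.4 CPM (18.0 to 96.4). It was 0.22 ± 0.24 in D1 nuclei, 0.17 ± 0.19 in cluster 8, led by Drd3 and Rtp2, 0.16 ± 0.19 in cluster 13 and -0.02 ± 0.15 in the eccentric class, with adjusted p from 0.929 up. For Crhr1 the fold was -0.13 ± 0.15 in glutamate neuron-like nuclei and -0.20 ± 0.18 in cluster 7. For Crhbp it was -0.02 ± 0.14 in cluster 13 and 0.02 ± 0.14 in cluster 15. Each of these intervals held 0 and the widest, for Crhr2 in D1 nuclei, reached 0.69.

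**Figure D4:**
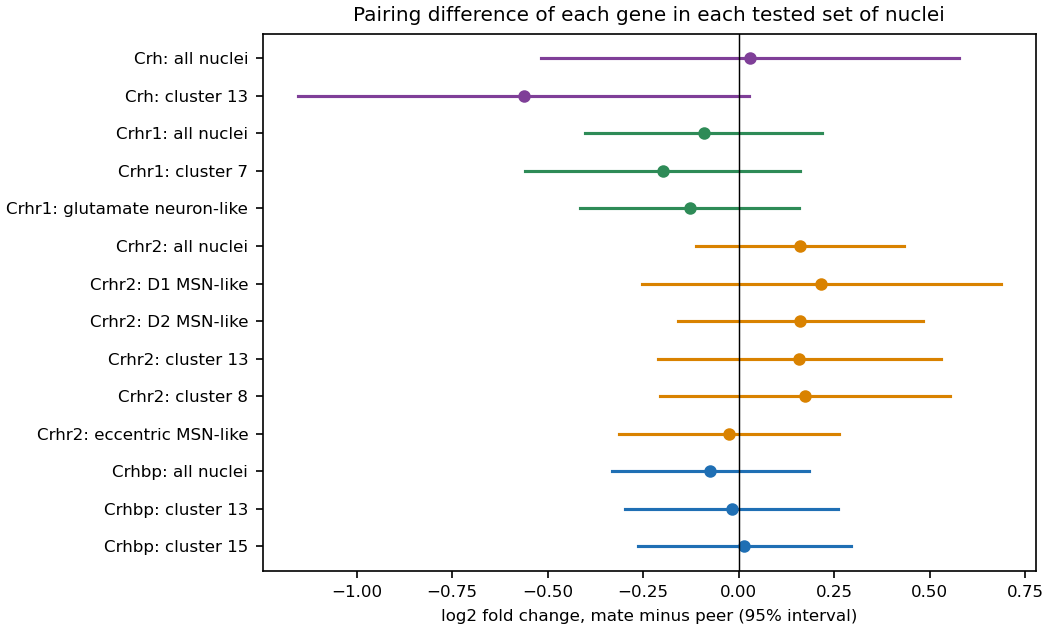
Log2 fold change of mate minus peer, averaged over the sexes, with its 95% interval (estimate ± normal quantile times SE, from edgeR), for each gene over all nuclei and in each class where it passed the filter. All 14 intervals include 0, and the estimate farthest from 0 is that of Crh in cluster 13, at -0.56.

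Levels were also compared in the 2 classes highest for each gene among the 17 scored by markers, cluster 15 included. The unnamed cluster 13, which was higher than the cholinergic class in Crh and than cluster 15 in Crhbp, was tested by edgeR only. Mate and peer labels were permuted within sex in 12 comparisons, which include those over all nuclei, and each had an adjusted p of 0.986. In the Vip-rich class, Crh ran from 66.4 to 1277 CPM in 7 mates (median 252) and from 125 to 517 CPM in 5 peers (median 382), and the difference averaged over the sexes was 19.2 CPM (exact permutation test, two-sided, p = 0.937). It rested on female mate 7: without this animal the mate mean was 231 CPM, beside 339 CPM in peers, and the difference was -105 CPM. Crhr2 in that class ran from 203 to 630 CPM in mates (median 429) and from 111 to 759 CPM in peers (median 220), a difference of 61.9 CPM (exact permutation test, p = 0.631) that was -54.9 CPM without male peer 9. With 7 mates and 5 peers split over both sexes, leaving out another animal instead raised each of these differences.

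In cholinergic nuclei, Crhr1 ran from 43.5 to 164 CPM in 11 mates (median 73.3) and from 0 to 277 CPM in 12 peers (median 83.0), a difference of -0.475 CPM (permutation test, p = 0.986) that was 17.1 CPM without female peer 3. Crh there had medians of 32.8 and 18.7 CPM. Oligodendrocyte precursors had Crhr1 medians of 57.2 CPM in 21 mates and 62.9 CPM in 18 peers. Crhbp in somatostatin nuclei ran from 408 to 1884 CPM in 17 mates (median 815) and from 356 to 1793 CPM in 14 peers (median 779), a difference of 45.9 CPM (permutation test, p = 0.771) that was -22.6 CPM without female mate 11. The ranges of mates and peers overlapped in each of these comparisons.

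**Figure D5:**
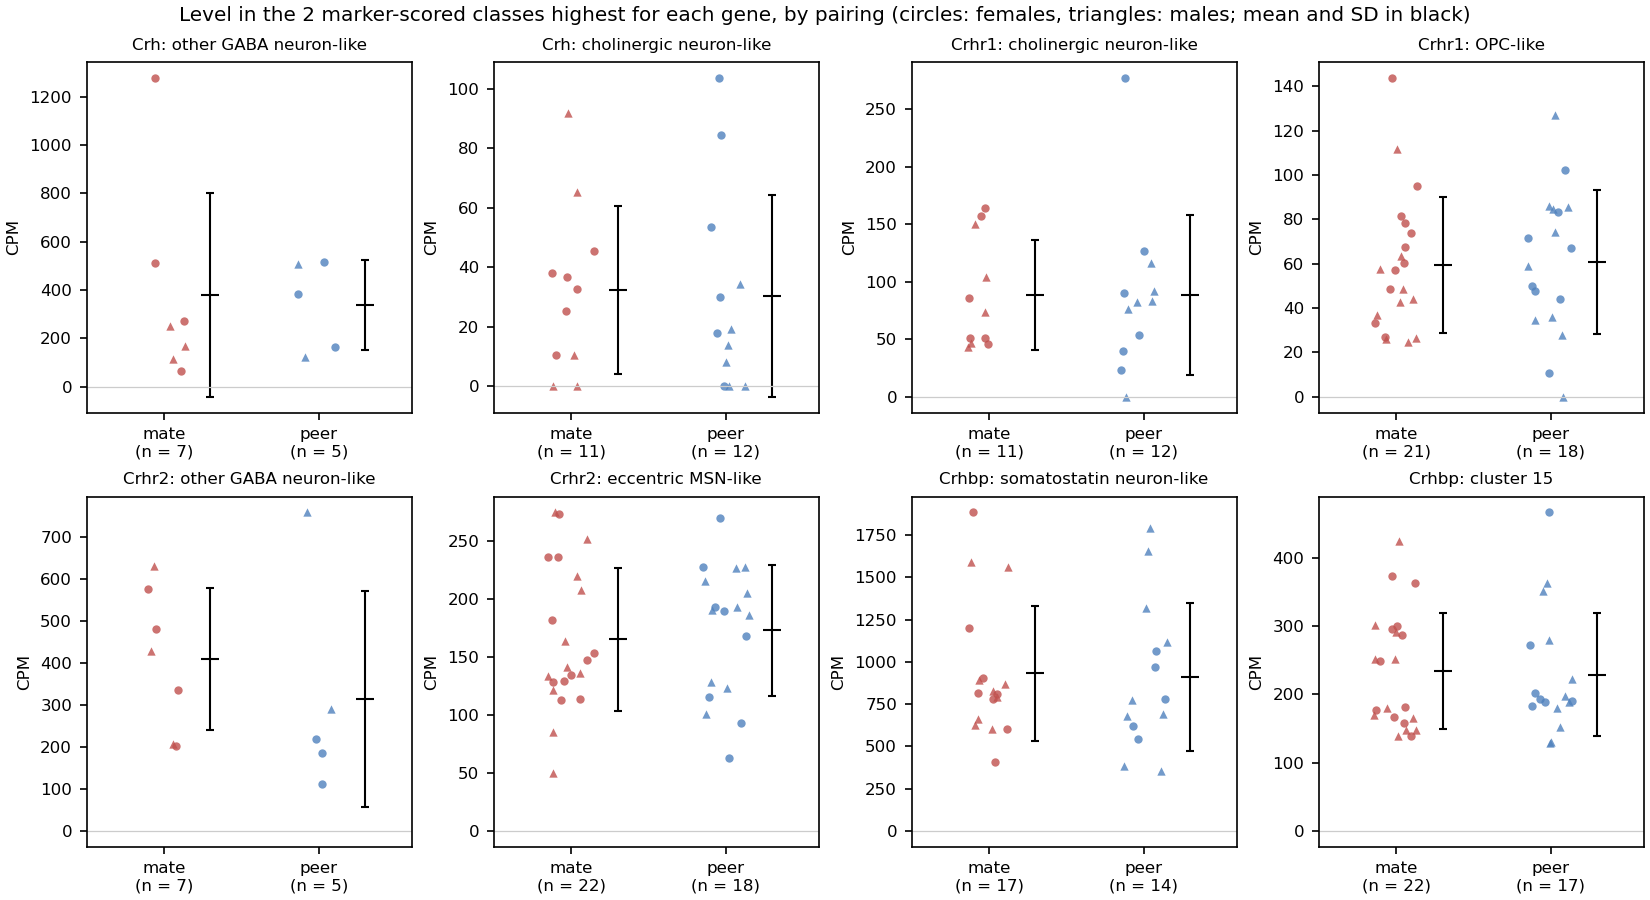
Level in CPM, for each gene, in the pair of marker-scored classes where it was highest (cluster 15 among them, unnamed cluster 13 left out), by pairing, with circles for females, triangles for males and the mean and SD in black. Mate and peer points overlap in all 8 panels, as with Crhbp in somatostatin nuclei at medians of 815 and 779 CPM.

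The other genes of the pathway were taken from a list of ligands, G proteins and adenylyl cyclases, kinases, desensitising proteins, regulators of Crh and hormone partners. Of 35 listed in the matrices 28 passed the filter, and 0 rose and 0 fell with pairing by edgeR, with a median log2 fold change of -0.01 beside -0.01 over all genes tested. The lowest p values belonged to Adcy9, an adenylyl cyclase (log2 fold change 0.19 ± 0.09, adjusted p = 0.708), Gnai1, an inhibitory G protein subunit (-0.14 ± 0.08, adjusted p = 0.718), and Adcy5, the main adenylyl cyclase of the striatum (0.18 ± 0.11, adjusted p = 0.728). By edgeR, 1 of the 28, Adcy9, had an unadjusted p under 0.05 for pairing, beside 949 of all 13710 genes. For sex 0 of the 28 were called, beside 0.0219% of all genes, and 2 had an unadjusted p under 0.05, beside 1136 of 13710. These were Prkaca, a catalytic subunit of protein kinase A, and Creb1, a transcription factor it acts on, named here after their values were seen.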

How the data were processed

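The authors deposited, per sample, a sparse matrix of raw UMI counts with gene and barcode lists. Per the submitters' processing notes these were made with Cell Ranger 3.1.0. The genome build, annotation and rule for choosing barcodes are not given in the sources used here. The members and gene lists were chosen with earlier results of these data known.

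Nuclei needed 500 or more UMIs, with no more than 5% of them from 13 mitochondrial genes, and 7608 called doublets were removed (simulated doublets, 0.8% of barcodes per 1000 barcodes, an assumed rate). Any 2 libraries shared 2 to 85 barcode sequences (median 28), at most 1.53% of the smaller library. Clustering used 2000 variable genes without the 4 members, 30 principal components, 15 neighbours and the Leiden method (igraph 0.11.9) at resolution 1, with resolution 2 as an alternative. A second round at resolution 0.2, within clusters of at least 500 nuclei, was added after the first clusters and the members' levels had been seen, as was the scoring of markers: at least 3 markers at a log2 fold of at least 1 (pseudocount 5 CPM), other lineages at most 0.5 of that, and no other list leading the top 10 genes.

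Counts were summed per animal, so that the animal was the replicate, over all nuclei and per class (at least 20 nuclei per animal, 6 animals per group). They were tested with edgeR 4.0.16 in R 4.3.3 (quasi-likelihood, TMM, edgeR's filter on low counts, 1 mean per group, adjusted p under 0.05 called), checked on simulated data. The SE is the absolute log2 fold change over the root of F. Alternatives were DESeq2 1.42.0, no filter, doublets kept, at least 1000 UMIs, blocks of 10 library numbers, 50 nuclei, and leaving out the shallowest library. Permutation tests were two-sided, within sex, with 100000 resamples or all 350 relabellings, adjusted over 12 comparisons. Named genes were the 4 members, the 3 genes most like each over clusters with at least 200 nuclei, and the 3 pathway genes with the lowest p. No sequences or coordinates are given.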

Additional observations from a re-analysis of the deposited data

Results flagged for a closer look

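Of 29 groups of 4 to 10 animals checked, 3 held an animal far from the others, and chance flags about 1 in 20 groups. In cholinergic nuclei, male peer 7 had 0 CPM of Crhr1 (0 UMIs in 25 nuclei) while the other 5 male peers ran from 76.1 to 116 CPM. In oligodendrocyte precursors, male mate 10 had 112 CPM of Crhr1 (12 UMIs in 124 nuclei), above the 24.4 to 63.4 CPM of the other 9 male mates. In cluster 15, female peer 6 had 466 CPM of Crhbp (52 UMIs in 40 nuclei), above the 183 to 273 CPM of the other 6 female peers.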

How the results depend on the processing

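None of the 4 genes was called over all nuclei, for pairing, sex or their interaction, under the 6 alternatives run there, nor within classes, where only pairing was tested, under the 7 run there. The lowest adjusted p of a member over all of these tests was 0.607 (Crh by sex, DESeq2). Over all genes and classes, 5 of 233160 combinations were called with no filter on low counts and 0 otherwise, and 2 to 6 genes were called for sex. Crh in cluster 13 had an unadjusted edgeR p of 0.0307 with doublets kept and 0.0356 with no filter, with 0.0668 in the analysis reported. Signs of differences within their error turned in some settings. Over all nuclei the log2 fold change of Crhbp for pairing turned to 0.056 with the library-number blocks, and the interaction of Crh to -0.0092 with DESeq2 and -0.11 with doublets kept. In cluster 13, that of Crhbp turned to 0.014 with doublets kept, 0.020 at 1000 UMIs, 0.12 with the blocks and 0.0045 without male mate 2. In the permutation tests on log2(CPM + 1), the difference turned to -0.013 for Crh over all nuclei, -0.26 for Crh in the Vip-rich class, and 0.47 and 0.20 for Crhr1 in cholinergic nuclei and precursors. Leaving out each animal in turn, chosen after seeing the data, these differences in CPM ran from -0.457 to 0.575 for Crh over all nuclei, -1.04 to -0.210 for Crhr1 over all nuclei, 2.25 to 5.57 for Crhr2 over all nuclei, -2.27 to -0.776 for Crhbp over all nuclei, -105 to 115 for Crh in the Vip-rich class, -5.24 to 7.58 for Crh in cholinergic nuclei, -8.81 to 17.1 for Crhr1 in cholinergic nuclei, -5.28 to 2.07 for Crhr1 in precursors, -54.9 to 179 for Crhr2 in the Vip-rich class, -14.6 to 0.291 for Crhr2 in the eccentric class, -22.6 to 97.0 for Crhbp in somatostatin nuclei and -6.49 to 22.1 for Crhbp in cluster 15, and the lowest unadjusted permutation p was 0.106. Thinned to 1000 UMIs per nucleus, the share with a UMI was 14.0% for Crh and 28.2% for Crhr2 in the Vip-rich class, 8.21% for Crhr1 in cholinergic nuclei and 38.1% for Crhbp in somatostatin nuclei. The highest levels moved by less than 1 SD between animals. By Spearman correlation, 8 of the 12 genes named as most like a member left the top 3. No paired analysis was run because the labels name no partners, and partners were not inferred from the order of the libraries.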
